A study of Homo sapiens with 6 samples.

Results

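The immediate early response genes examined here were FOS, FOSL1, FOSL2, JUN, JUNB, EGR1, IER2, IER3, ATF3 and MYC. They were found in the deposited expression table by matching Ensembl gene IDs to these symbols, which gave 10 of 40396 genes. H1 cells, an established human embryonic stem cell line, were differentiated toward definitive endoderm (DE) for 3 days. Activin A was present at 50 ng/mL in both groups, and the Wnt-activating compound CHIR99021 at 2.5 µM during the first 24 h only. The SAR group also received 0.5 µM saracatinib (SAR), an inhibitor of Src family kinases, throughout, and the control group did not. The study names DMSO for the controls of its western blots, and no vehicle is stated for these libraries. Each group had 3 samples, and mRNA from each gave 1 library. Whether they came from separate cultures is not stated, so p-values measure the spread between these samples, which may be technical.

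Immediate early genes are transcribed within minutes of a growth factor, adhesion or stress signal, from factors already present in the cell and without new protein synthesis. Many are switched on when ERK signaling reaches SRF and its partners at CArG boxes, and their mRNAs are short-lived. FOS and JUN proteins pair to form AP-1, EGR1 binds GC-rich sites, ATF3 binds CRE-like sites as part of the stress response, MYC drives growth and ribosome production, and IER3 acts on cell survival and ERK signaling. The comparison asks how the mRNA of these genes stood at the end of differentiation with and without the kinase inhibitor. RNA was taken once, so the data give a level on day 3 and no time course of induction.

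Expression is given as FPKM, the fragments of a gene scaled by its length and by the total of its library. The 6 library totals were between 16681280 and 24419937 reads, and all 3 totals of the control group were above those of the SAR group. The control library with replicate number 1 listed 33169 genes above 0, against 29506 to 30109 in the other 5 libraries. Definitive endoderm markers were high in both groups. Of their 9 genes, 3 were higher with SAR, among them FOXA2 at 64.0 ± 3.66 FPKM against 23.6 ± 1.38, and 6 were lower, among them CER1 at 1683 ± 35.4 against 4104 ± 534 (mean ± SD, n = 3 per group). By the test given below these are 33.3% and 66.7%, against 23.7% and 9.55% of all tested genes. In bulk RNA, fewer cells of a type and less RNA per cell cannot be told apart.

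IER3 changed most of the 10 genes. Of these, IER3, JUN, ATF3 and MYC were downregulated by SAR and JUNB was upregulated, in limma on log2(FPKM + 0.1) with a Benjamini-Hochberg adjusted p below 0.05. FOS, FOSL1, FOSL2, EGR1 and IER2 did not pass the test. Among all 16371 genes tested, 9.55% fell and 23.7% rose by the same rule, against 4 and 1 of these 10. These 5 were also the genes whose groups did not overlap, in a background where the groups did not overlap for 15.2% of genes downward and 35.5% upward. With the threshold of an absolute log2 fold change above 1 added, IER3 alone remained, in a background where 1.58% of genes fell and 3.41% rose. The median log2 fold change of the 10 genes was −0.53, and that of all tested genes was 0.12. After each library was rescaled by the median ratio of its genes, which brought the median of all tested genes to 0.00, the median of the 10 genes was −0.64, 4 remained lower and 0 higher. The same rescaling changed the calls over all genes from 3885 higher and 1563 lower to 2259 higher and 2538 lower.

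**Figure D1:**
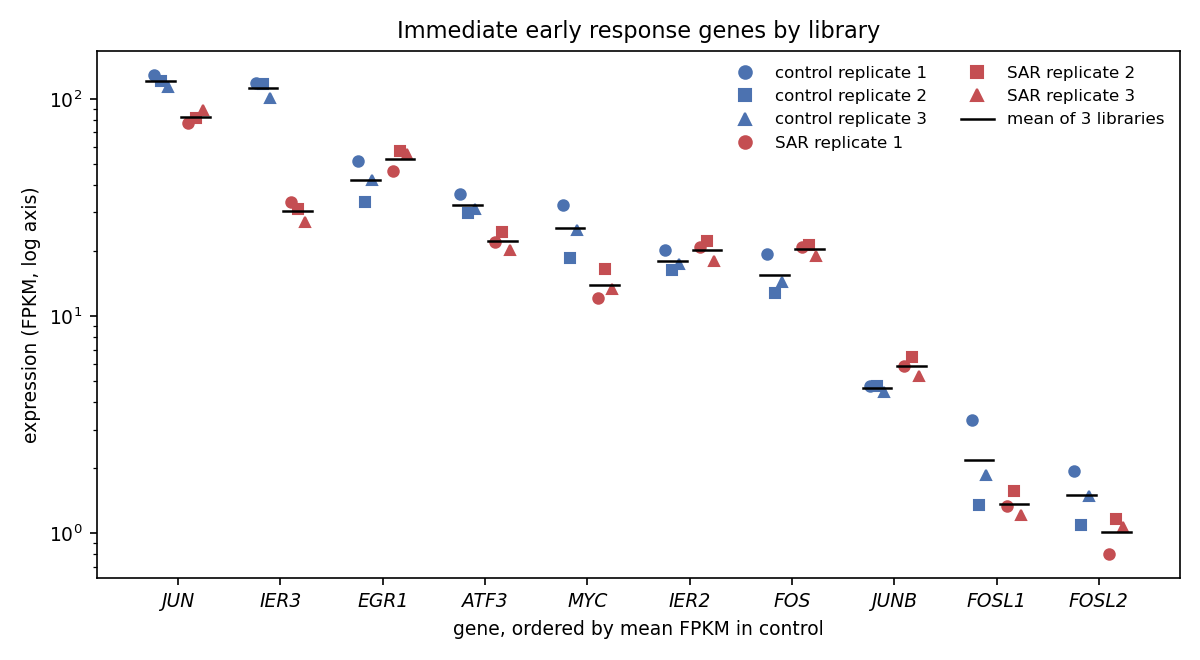
FPKM of the 10 genes in each of the 6 libraries on a log axis, with control in blue, SAR in red and a bar at the mean of 3 libraries. IER3, JUN, ATF3 and MYC have every SAR library below every control library, JUNB has every SAR library above, and the other 5 genes overlap.

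The promoters of the genes carry different signal-response sequences, and those that bear on the genes described here are shown first. RefSeq promoters on GRCh38.p14, read as the 250 bases before a transcript start, were matched for 7 of the 10 genes, with 2 entries for ATF3. IER3, FOSL1 and MYC had no entry. Motifs were searched on both strands of these 250 bases and no further upstream. The windows shown and the search for a CRE-like sequence were chosen after the values had been seen. CArG boxes, where SRF binds, were found in the EGR1 promoter and in no other matched one, against 1.16% of 35116 promoters. They lie 105 to 96 and 83 to 74 bases before the start, and the same promoter holds a GC-rich EGR site (GCGNGGGCG, in 8.41% of all promoters) at 198 to 190 bases. The EGR1 promoter is shown for these 3 matches, in capitals.
EGR1, chr5:138465229-138465478, plus strand: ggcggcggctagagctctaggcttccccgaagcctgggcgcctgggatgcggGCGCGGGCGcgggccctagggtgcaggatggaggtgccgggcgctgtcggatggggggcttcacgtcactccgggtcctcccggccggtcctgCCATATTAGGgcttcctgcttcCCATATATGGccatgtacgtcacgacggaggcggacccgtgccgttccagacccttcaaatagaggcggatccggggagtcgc

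JUN and ATF3 each hold the CRE-like sequence TGACNTCA, which 6.87% of all promoters hold, ATF3 in only the upstream of its 2 entries. In both genes the match reads TGACATCA, at 67 to 60 bases before the start in JUN and 123 to 116 bases in ATF3. The search was chosen after both had been seen to fall by 0.55 on the log2 scale. IER3 and MYC, which also fell, had no entry, so a link to the fall was not tested. The AP-1 sequence TGANTCA, in 6.57% of promoters, and the E-box CACGTG, to which MYC binds and which 6.34% hold, matched none of the 8 entries. The CRE-like matches overlapped no other motif searched. The 30 bases around each match are shown because these are the 2 genes with the sequence, the match in capitals; the JUN stretch lies inside an exon of the GENCODE 29 annotation, whose JUN transcripts start earlier than RefSeq's.
JUN, chr1:58784096-58784125, minus strand: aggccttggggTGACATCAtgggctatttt
ATF3, chr1:212565273-212565302, plus strand: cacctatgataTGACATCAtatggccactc

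The TATA box sequence (TATAAA, in 10.7% of promoters) was found in FOS, JUNB and 1 of the ATF3 entries. In FOS it lies 33 to 28 bases before the RefSeq start, inside an exon of GENCODE 29, whose FOS gene begins earlier, and in JUNB 31 to 26 bases before the start. These 2 genes are shown because both were at higher means with SAR, FOS without passing the test. ATF3 fell, and its match lies much farther from the start, at 230 to 225 bases in its downstream entry. EGR1 and IER2, also at higher means with SAR, hold no match. The GGAATG sequence that TEAD factors bind, in 11.9% of promoters, matched none of the 8 entries, and an ETS sequence (CCGGAAG, in 8.52%) matched IER2 only. A match is a sequence in this window and no evidence of binding.
FOS, chr14:75278783-75278812, plus strand: taaaacgcttgtTATAAAagcagtggctgc
JUNB, chr19:12791443-12791472, plus strand: tgactagcgcggTATAAAggcgtgtggctc

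IER3, an early response gene linked to survival, had the largest change. It lies at chr6:30743199-30744554 on the minus strand (GRCh38, GENCODE 29). The control libraries were at 118, 116 and 101 FPKM for IER3, from 3478, 3836 and 2579 reads, and the SAR libraries at 33.5, 31.0 and 27.0 FPKM, from 754, 710 and 671 reads. All SAR libraries were therefore far below all control libraries. The mean fell from 112 ± 9.14 to 30.5 ± 3.26 FPKM (SD, n = 3), which is 27.3% of control. The log2 fold change of IER3 was −1.87 (SE 0.10, limma adjusted p = 0.000142), the 107th most negative of the 16371 tested. Under 15 alternative settings it was between −1.99 and −1.79 and always passed. The antisense gene IER3-AS1 covers 26.5% of the IER3 exon bases on the other strand. Since the strand setting of the counting is not stated, reads in this overlap cannot be assigned to either gene.

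JUN, the AP-1 subunit that can pair with itself or with a FOS protein, was the most abundant of the 10 genes in both groups. Control libraries held 129, 121 and 113 FPKM of JUN and SAR libraries 77.2, 81.5 and 89.2. The lowest control library stood well above the highest SAR library. The JUN means were 121 ± 8.16 FPKM in control and 82.6 ± 6.08 FPKM with SAR (SD, n = 3). On the log2 scale JUN fell by 0.55 (SE 0.08, limma adjusted p = 0.0033). JUN rests on more reads than any other of the 10, between 4666 and 10666 per library.

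ATF3, the stress-responsive partner of JUN, had a log2 fold change of the same size. Its libraries were at 36.3, 29.8 and 31.0 FPKM in control and at 22.0, 24.4 and 20.1 with SAR, so that again no SAR library reached a control library. The log2 fold change of ATF3 was −0.55 (SE 0.10, limma adjusted p = 0.0082). ATF3 and JUN kept the test in all 15 alternative settings, with log2 fold changes of −0.67 to −0.46 for ATF3 and −0.67 to −0.50 for JUN. ATF3 is a target of the integrated stress response, in which ATF4 is the central factor. ATF4 mRNA was at 143 ± 6.26 FPKM in control and 149 ± 9.49 with SAR (log2 fold change 0.06, limma adjusted p = 0.531).

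MYC, the growth regulator, fell with a wide spread in control. Its control libraries were at 32.5, 18.5 and 25.0 FPKM and its SAR libraries at 12.1, 16.4 and 13.3. The groups did not overlap, but the lowest control library was close to the highest SAR library. The log2 fold change of MYC was −0.83 (SE 0.21, limma adjusted p = 0.0230). MYC no longer passed without control replicate 3 (−0.82, limma adjusted p = 0.0686), without SAR replicate 1 (−0.74, limma adjusted p = 0.0706), without SAR replicate 3 (−0.81, limma adjusted p = 0.0538) or with no filter on low genes (limma adjusted p = 0.0578), and kept its direction in each. The gene length behind the deposited MYC values was 4584 bases, where the exons of GENCODE 29 add up to 3001, which affects the level of MYC set beside other genes and not the fold change.

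JUNB, a JUN relative that often counteracts JUN in AP-1, was the member that rose. Its control libraries were tightly grouped at 4.76, 4.74 and 4.49 FPKM and its SAR libraries were at 5.86, 6.48 and 5.29. Every SAR library was above every control library. The log2 fold change of JUNB was 0.32 (SE 0.09, limma adjusted p = 0.0286). This rise depended on the scaling, since after the median-ratio rescaling JUNB had a log2 fold change of 0.20 with a limma adjusted p of 0.125, and with quantile normalization 0.21 with a limma adjusted p of 0.120. It also missed the threshold without control replicate 1, 2 or 3 or SAR replicate 1 or 2, with log2 fold changes of 0.34, 0.34, 0.30, 0.32 and 0.25 and limma adjusted p of 0.0558, 0.0692, 0.0988, 0.0699 and 0.0837 for JUNB. Of the JUNB exon bases, 14.2% lie opposite to HOOK2.

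**Figure D2:**
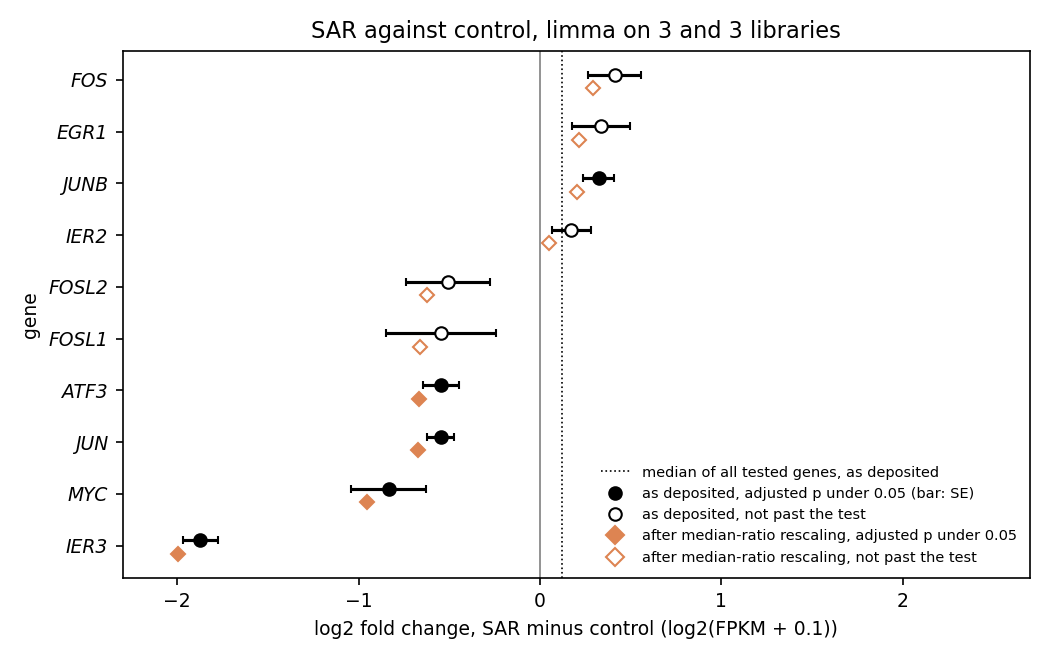
Log2 fold change (SAR minus control) of each of the 10 genes, as deposited (circles, bars are SE) and after median-ratio rescaling (diamonds); filled symbols passed an adjusted p of 0.05. IER3, MYC, JUN and ATF3 are filled under both scalings, and JUNB, at 0.32 as deposited, is open at 0.20 after rescaling.

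FOS and EGR1, the genes most directly tied to SRF and ERK, were higher on average with SAR without passing the test. FOS libraries were at 19.2, 12.7 and 14.3 FPKM in control and at 20.7, 21.2 and 18.9 with SAR. Control replicate 1 lay above SAR replicate 3, and the other 2 control libraries lay below all SAR libraries. The log2 fold change of FOS was 0.41 (SE 0.15, limma adjusted p = 0.0670), and without control replicate 1 it was 0.58 (limma adjusted p = 0.0077). With limma voom on read counts recovered from the FPKM, FOS passed as well, at 0.42 (limma adjusted p = 0.0226).

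EGR1, whose CArG boxes are shown above, had a similar arrangement. Its control libraries were at 51.6, 33.5 and 42.4 FPKM and its SAR libraries at 46.4, 57.2 and 55.5. The groups overlapped through control replicate 1. The log2 fold change of EGR1 was 0.34 (SE 0.16, limma adjusted p = 0.145) with all libraries and 0.49 (limma adjusted p = 0.0442) without control replicate 1. EGR1 lies at chr5:138465490-138469315 on the plus strand.

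IER2, another early response gene, was at 20.1, 16.4 and 17.3 FPKM in control and 20.7, 22.2 and 17.9 with SAR. The groups overlapped, and the log2 fold change of IER2 was 0.17 (SE 0.11, limma adjusted p = 0.246), or 0.05 after the median-ratio rescaling. Of the IER2 exon bases, 30.8% lie opposite to AC011446.2. The ratio of IER3 to IER2 FPKM within a library, chosen after the values had been seen, was 5.84, 7.11 and 5.84 in control and 1.62, 1.40 and 1.51 with SAR, without overlap.

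FOSL1 and FOSL2, the FOS relatives that accumulate after FOS in many cells, were the lowest of the 10. FOSL1 was at 3.34, 1.35 and 1.85 FPKM in control, from 138, 62 and 66 reads, and at 1.33, 1.56 and 1.21 with SAR, from 42, 50 and 42 reads. FOSL2 was at 1.94, 1.09 and 1.49 in control and at 0.80, 1.16 and 1.07 with SAR. Both overlapped between the groups, with control replicate 1 well above the rest. Their log2 fold changes were −0.54 for FOSL1 (SE 0.30, limma adjusted p = 0.199) and −0.51 for FOSL2 (SE 0.23, limma adjusted p = 0.129). Without control replicate 1 FOSL1 was at −0.20 and FOSL2 at −0.32. With quantile normalization FOSL2 passed the test at −0.72 (limma adjusted p = 0.0434). A change of FOSL1 of the size seen for JUN was not detectable with this spread.

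The 10 genes differed in how far the control libraries spread. Control replicate 1 held the highest of the 3 control values for all 10 genes, where it held the highest value for 42.4% of all tested genes. After the median-ratio rescaling it was highest for 8 of the 10, against 35.5% of all tested genes. In another list of 33 tested immediate early genes it was highest for 27, and it was also highest for 14 of 17 MYC targets and 8 of 10 AP-1 targets. Counts were 8 of 12 for AP-1 partners and 7 of 10 for heat shock genes. They were lower in other lists, at 6 of 14 stress response, 4 of 11 upstream, 6 of 24 MAPK, 2 of 12 MYC network and 0 of 9 definitive endoderm genes. The standard deviation of log2 values in control was larger for FOSL1 than for 95.6% of tested genes, for MYC than for 89.9%, for FOSL2 than for 89.3%, for EGR1 than for 85.0% and for FOS than for 84.6%, while IER2 at 65.0%, ATF3 at 64.1%, IER3 at 55.1% and JUN at 45.5% lay nearer the middle and JUNB at 17.0% below it. In the SAR group this share was between 29.2% for FOS and 79.2% for FOSL2, with MYC at 75.2%, FOSL1 at 64.6% and EGR1 at 61.7%. Leaving out control replicate 1 changed the calls of FOS, EGR1 and JUNB as given above, and its part in the other spreads was not tested.

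**Figure D3:**
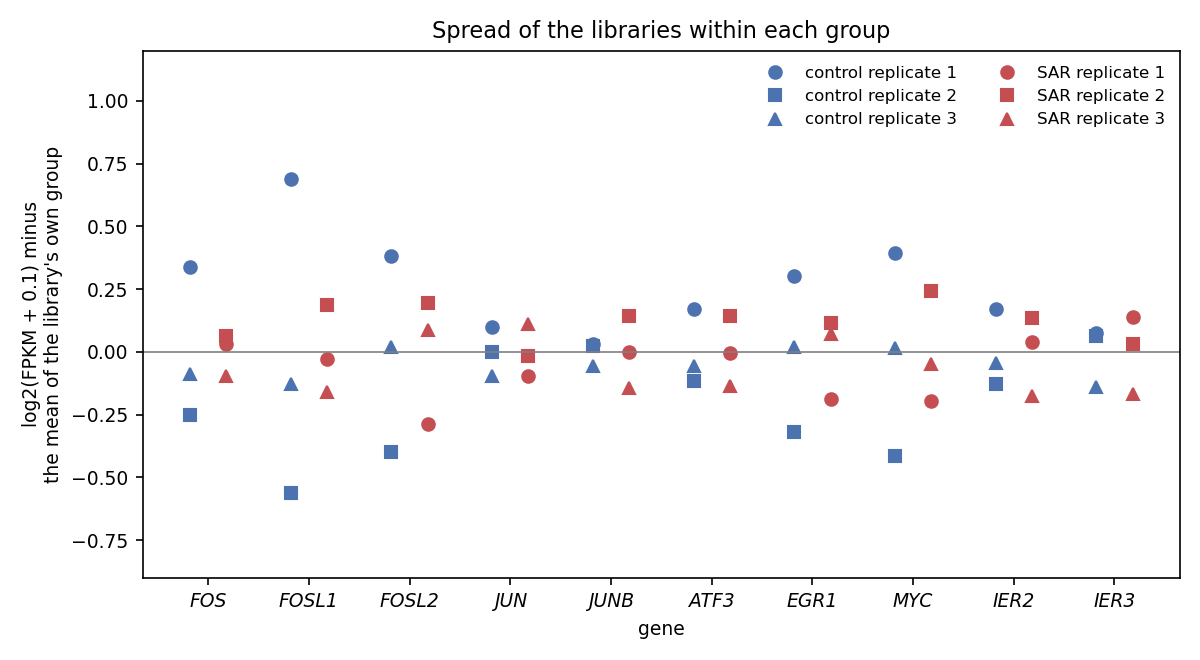
Each library's log2(FPKM + 0.1) minus the mean of its own group, by gene, with control in blue and SAR in red. Control replicate 1 (blue circles) is the highest control value for each of the 10 genes, far above the mean for FOSL1, MYC, FOSL2, FOS and EGR1 and close to it for JUN, JUNB and IER3.

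The order of the levels changed between the groups. In control the means descended from JUN at 121 FPKM over IER3 at 112, EGR1 at 42.5, ATF3 at 32.4, MYC at 25.3, IER2 at 17.9, FOS at 15.4, JUNB at 4.67 and FOSL1 at 2.18 to FOSL2 at 1.5. The libraries of neighbours in this order overlapped, except between IER3 and EGR1, FOS and JUNB, and JUNB and FOSL1. With SAR the order was JUN at 82.6, EGR1 at 53.0, IER3 at 30.5, ATF3 at 22.1, FOS at 20.3, IER2 at 20.2, MYC at 13.9, JUNB at 5.88, FOSL1 at 1.37 and FOSL2 at 1.01 FPKM. Here ATF3, FOS and IER2 overlapped as neighbours and the others did not. IER3 lay above EGR1 in control and below it with SAR. The place of MYC depends on its gene length. With the 3001 exon bases of GENCODE 29 in place of 4584, MYC would be at 38.7 ± 10.7 FPKM in control, with a mean above that of ATF3, and at 21.3 ± 3.40 with SAR (SD, n = 3), with a mean above those of FOS and IER2 and libraries that overlap both.

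AP-1 was viewed as the sum of its FOS and JUN subunits, adding FOSB and JUND to the 5 of the list. The sum of the 7 genes was 220, 199 and 192 FPKM in control and 171, 173 and 181 with SAR. The groups did not overlap, with means of 204 ± 14.4 and 175 ± 5.60 FPKM (SD, n = 3, ratio 0.859, exact permutation test, two-sided p = 0.1, the smallest that 3 against 3 samples can give). Within it the JUN family went from 184 ± 10.4 to 151 ± 6.77 FPKM (exact permutation p = 0.1) and the FOS family from 19.8 ± 4.86 to 23.7 ± 1.33 (exact permutation p = 0.4). The summed mRNA does not give the amount of AP-1 protein or its pairing.

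The makeup of the sum shifted from JUN toward JUND and FOS. JUN made up 58.7%, 60.7% and 58.7% of the sum in control and 45.2%, 47.2% and 49.2% with SAR. JUND, the subunit that is least responsive to growth signals, made up 28.7 ± 0.957% in control and 35.8 ± 1.36% with SAR, and FOS 7.53 ± 1.17% and 11.6 ± 1.01%. JUND itself was at 58.3 ± 2.13 and 62.5 ± 2.50 FPKM (log2 fold change 0.10, limma adjusted p = 0.188). FOSB rose from 0.75 ± 0.04 to 1.06 ± 0.06 FPKM (log2 fold change 0.46, limma adjusted p = 0.0451), a low level, and did not pass after the median-ratio rescaling (0.35, limma adjusted p = 0.106).

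Ratios within a library, which need no scaling between libraries, were chosen after the values had been seen. JUN over JUNB was 27.1, 25.4 and 25.1 in control and 13.2, 12.6 and 16.9 with SAR. JUN over FOS was 6.71, 9.46 and 7.89 in control and 3.73, 3.84 and 4.71 with SAR, and ATF3 over FOS went from 2.13 ± 0.228 to 1.09 ± 0.0516 (SD, n = 3). In each of the 7 ratios computed the groups did not overlap. The exact permutation p was 0.1 for each, the smallest possible, and 0.1 after adjustment over the 7. Each ratio set a gene already called lower over one not called lower, so these p-values add no support.

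In the MYC family MYC fell and both of its relatives rose. MYCN, the MYC relative typical of embryonic and stem cells, was at 8.08, 6.21 and 7.69 FPKM in control and 12.5, 14.2 and 12.5 with SAR (log2 fold change 0.83, SE 0.11, limma adjusted p = 0.0028). MYCL, the remaining family member, was at 5.36, 5.97 and 6.08 in control and 9.09, 9.87 and 10.3 with SAR (log2 fold change 0.74, SE 0.08, limma adjusted p = 0.0013). For both genes the SAR libraries lay above the control libraries without overlap, opposite to MYC. The sum of MYC, MYCN and MYCL was 38.5 ± 7.63 FPKM in control and 36.8 ± 3.47 with SAR (exact permutation p = 0.9). The share of MYC in it was 70.8%, 60.3% and 64.5% in control and 35.8%, 40.5% and 36.9% with SAR. MYC over MYCN went from 3.42 ± 0.542 to 1.06 ± 0.0930, and these values rest on the longer MYC gene length given above. With the GENCODE 29 length the share of MYC would be 74.0 ± 4.43% in control and 48.1 ± 2.56% with SAR.

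**Figure D4:**
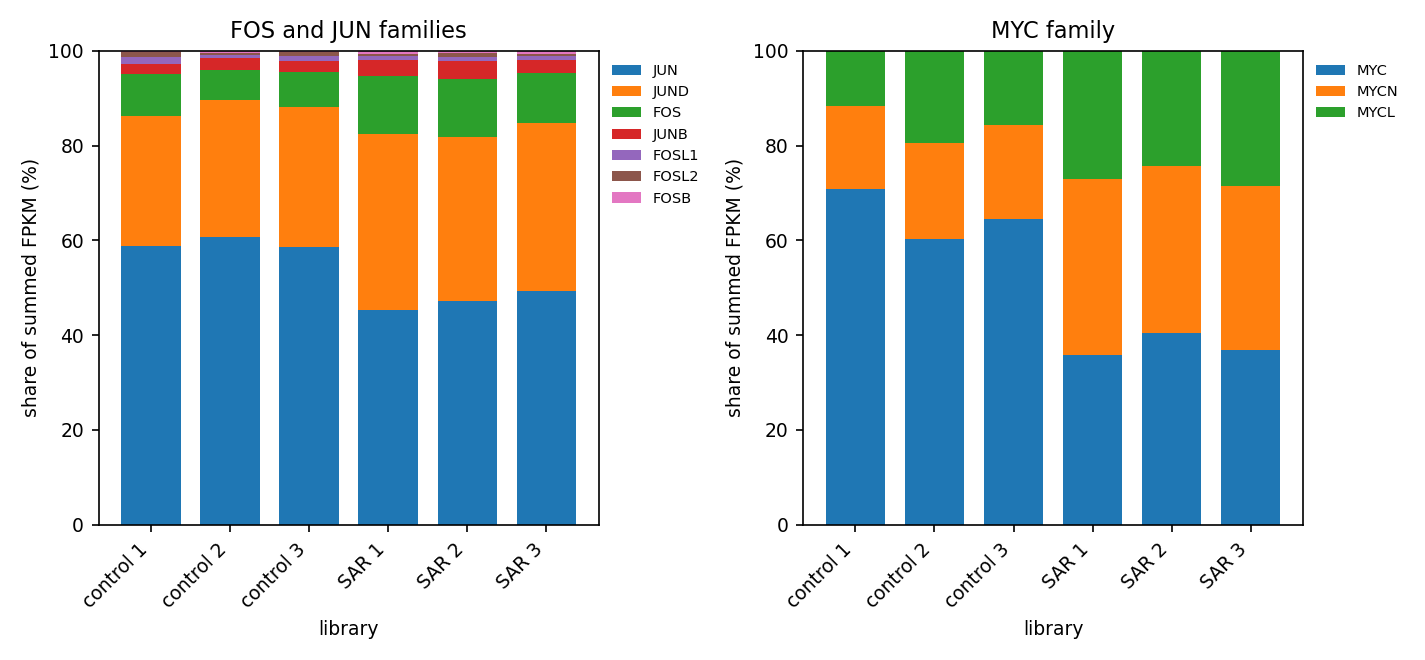
Share of the summed FPKM taken by each gene of the FOS and JUN families (left) and of the MYC family (right) in each library. The JUN share is between 58.7% and 60.7% in control and between 45.2% and 49.2% with SAR, and the MYC share is at least 60.3% in control and at most 40.5% with SAR.

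The wider MYC network and MYC target genes moved in both directions. Of 12 network genes tested, 4 rose and 2 fell, which is 33.3% and 16.7% against 23.7% and 9.55% of all tested genes, with a median log2 fold change of 0.13. MLXIPL, a glucose-responsive relative, rose by 1.79 on the log2 scale (limma adjusted p = 0.0001), from 2.16 ± 0.224 to 7.66 ± 0.333 FPKM, MXD4 rose by 0.23 as deposited but did not pass after the median-ratio rescaling (limma adjusted p = 0.213), and MLX, the partner of MLXIPL, fell by 0.39. MAX, the partner of MYC itself, was at 4.78 ± 0.209 and 5.0 ± 0.593 FPKM (limma adjusted p = 0.661). Of 17 target genes, 2 rose and 2 fell, which is 11.8% in each direction against the same 23.7% and 9.55%, with a median of 0.01. ODC1, which makes polyamines, rose from 63.4 ± 3.72 to 107 ± 13.6 FPKM, NOP56, a ribosome assembly factor, rose by 0.48 on the log2 scale, TFRC, the transferrin receptor, fell from 59.9 ± 7.52 to 24.7 ± 3.04 FPKM, and LDHA, a glycolytic enzyme, fell by 0.41 on the log2 scale.

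Other immediate early genes, from a list of 37 of which 33 passed the filter on low values, gave 6 that rose and 11 that fell, with a median log2 fold change of −0.04. These are 18.2% and 33.3%, against 23.7% and 9.55% of all tested genes. The groups did not overlap in 7 genes in the upward and 13 in the downward direction, where all tested genes gave 35.5% and 15.2%. The 5 with the smallest adjusted p all fell. NFKBIA, the inhibitor of NF-kappaB, was at 70.6, 85.4 and 78.1 FPKM in control and 37.1, 32.9 and 33.6 with SAR (log2 fold change −1.17, limma adjusted p = 0.0004), and ZFP36, which removes short-lived mRNAs, was at 35.7, 34.3 and 31.6 against 21.2, 20.2 and 20.03 (−0.72, limma adjusted p = 0.0007). KLF6, a transcription factor, fell by 1.02, PLK2, a kinase of the stress response, fell by 1.12 and GADD45A, a growth arrest gene, fell by 0.60 on the log2 scale. NFKBIA, PLK2 and KLF6 were the 3 that passed the fold threshold of 1.

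Among those that rose were EGR3, a relative of EGR1, at 0.68, BTG2, an antiproliferative gene, at 0.38 and DUSP1, a phosphatase of MAP kinases, at 0.36 on the log2 scale, named after their values were seen. ZFP36L2, an mRNA-binding relative of ZFP36, rose by 0.65, also named after its value was seen. After the median-ratio rescaling 2 of the list were higher, BTG2 and ZFP36L2, and 13 lower, against 2259 higher and 2538 lower of all 16371 tested genes. EGR3 (0.57, limma adjusted p = 0.0611) and DUSP1 (0.24, limma adjusted p = 0.116) no longer passed. CCN1 and CCN2, known as targets of YAP as well as of SRF, had every SAR library below every control library but a wide control. CCN2 went from 216 ± 62.9 to 132 ± 14.9 FPKM (log2 fold change −0.67, limma adjusted p = 0.0509) and CCN1 from 162 ± 51.0 to 109 ± 8.21 (−0.53, limma adjusted p = 0.0860). After the median-ratio rescaling both passed, CCN2 at −0.79 (limma adjusted p = 0.0276) and CCN1 at −0.66 (limma adjusted p = 0.0442). EGR2, EGR4, NR4A3 and NPAS4 were below the filter and not tested. Their means were higher with SAR, at 0.59, 0.23, 0.41 and 0.57 FPKM against 0.28, 0.04, 0.14 and 0.14 in control. These levels are low, and the groups overlapped for EGR2 and NPAS4.

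**Figure D5:**
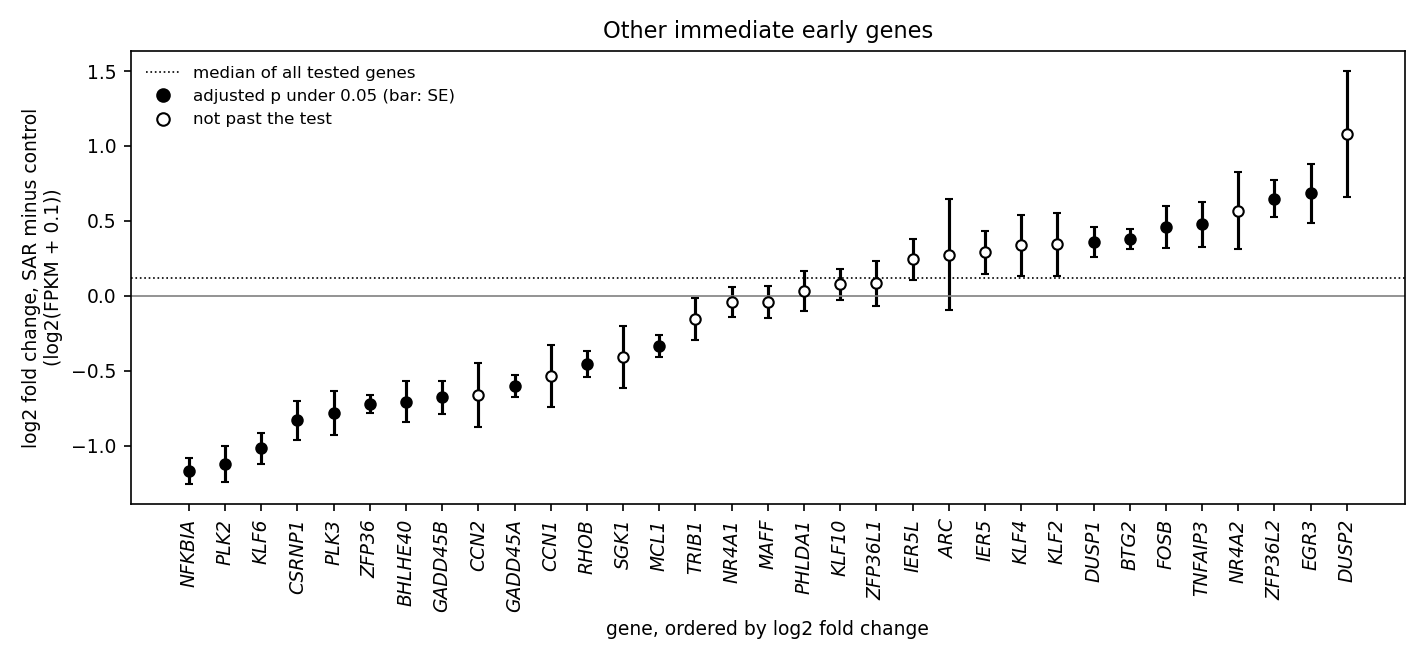
Log2 fold change (SAR minus control, bars are SE) of 33 other immediate early genes, ordered by value; filled circles passed an adjusted p of 0.05. NFKBIA is lowest at −1.17, 11 filled genes are below 0 and 6 above.

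The genes that carry the signal to immediate early promoters were examined as well. Of 11 factors upstream, which bind the promoters or act on the bound factors, MRTFA, the actin-regulated partner of SRF, rose by 0.46 and ELK3, a ternary complex factor, fell by 0.37 on the log2 scale. This is 9.09% in each direction, against 23.7% and 9.55% of all tested genes. SRF was at 23.4 ± 1.28 FPKM in control and 22.7 ± 1.26 with SAR (limma adjusted p = 0.673). NAB1 and NAB2, which restrain EGR1, had log2 fold changes of 0.03 and 0.14 (limma adjusted p = 0.769 and 0.164). Of 24 tested genes of the MAPK cascade, 2 rose and 2 fell, which is 8.33% in each direction against 23.7% and 9.55% of all genes. MAP2K1, the kinase MEK1, fell from 50.7 ± 1.41 to 34.3 ± 0.992 FPKM, while MAP2K2, the kinase MEK2, rose from 23.6 ± 0.468 to 31.7 ± 2.16. MAP2K5 rose by 0.62 and MAPK7, the kinase that it activates, fell by 0.44 on the log2 scale. After the median-ratio rescaling, 1 upstream factor was higher and 3 were lower, and 2 genes of the MAPK cascade were higher and 6 lower. On that scale 2259 of all 16371 tested genes were higher and 2538 lower. Kinase activity was not measured by these data.

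Among 12 other tested dimer partners of AP-1, FOSB rose, and MAFG, a small MAF protein, and ATF6, a factor of the unfolded protein response, fell by 0.55 and 0.30 on the log2 scale. These are 8.33% higher and 16.7% lower, against 23.7% and 9.55% of all tested genes, and after the median-ratio rescaling 0 were higher and 3 lower. Of 10 tested genes known as AP-1 targets, 3 rose and 3 fell, which is 30% in each direction against 23.7% and 9.55% of all tested genes (median log2 fold change 0.09). VIM, the intermediate filament vimentin, went from 98.6 ± 4.66 to 60.2 ± 4.38 FPKM, and CD44, an adhesion receptor, and SPP1, osteopontin, fell by 0.89 and 1.10 on the log2 scale. TIMP1, an inhibitor of matrix proteases, went from 30.9 ± 0.713 to 45.8 ± 3.09 FPKM, and CCND1, cyclin D1, rose by 0.67. After the median-ratio rescaling 1 target was higher and 3 were lower, and CCND1 no longer passed (0.55, limma adjusted p = 0.0524). For partners and targets alike, the rescaled background was 2259 higher and 2538 lower of all 16371 tested genes.

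Stress genes were examined beside ATF3. Of 10 heat shock genes, 6 fell and 1 rose, which is 60% and 10% against 9.55% and 23.7% of all tested genes. Their median was −0.40 on the log2 scale, where that of all tested genes was 0.12. HSPA8, the constitutive HSP70, was at 388 ± 29.8 FPKM in control and 235 ± 26.3 with SAR (log2 fold change −0.73, limma adjusted p = 0.0030). HSP90AA1, HSPH1 and BAG3 fell by 0.47, 0.59 and 0.34 on the log2 scale, and HSPB1 rose by 0.22 as deposited but did not pass after the median-ratio rescaling (0.10, limma adjusted p = 0.252). HSPA1A and HSPA1B, the inducible HSP70 genes and near-identical copies between which reads can be split, also passed the test downward. Of 14 tested genes of the integrated stress and unfolded protein responses, 3 fell and 1 rose, which is 21.4% and 7.14% against 9.55% and 23.7%. VLDLR, a lipoprotein receptor, HSPA5, the endoplasmic reticulum chaperone, and PSAT1, an enzyme of serine synthesis, fell by 0.92, 0.47 and 0.34 on the log2 scale, and PHGDH, the enzyme upstream of PSAT1, rose by 0.30 as deposited but did not pass after the median-ratio rescaling (0.18, limma adjusted p = 0.0687).

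The genes whose libraries most resembled those of the 3 members with the smallest adjusted p were found among 12657 genes by the root mean square distance of centred log2 values over the 6 libraries. For IER3 they were LINC00467, RNF125 and SERPINB9, at distances of 0.09, 0.15 and 0.15. SERPINB9, a granzyme inhibitor, was at 226, 239 and 237 FPKM in control and 77.6, 79.2 and 68.9 with SAR. For JUN they were RBM20, NPC1 and RAB20, at 0.04, 0.05 and 0.05, and for ATF3 SH3BGR, SNHG14 and MTHFD2, at 0.06, 0.06 and 0.07. The distances include the difference between the groups, so a gene with the same fold change ranks high.

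Markers of other cell types moved alongside. Of 8 pluripotency markers, 3 rose (37.5%, against 23.7% of all tested genes), among them SOX2 by 0.88 on the log2 scale. NANOG alone fell, by 1.30 (12.5%, against 9.55% of all tested genes). After the median-ratio rescaling 1 was higher and 1 lower, against 2259 higher and 2538 lower of all 16371 tested genes. Their summed level was between 858 and 961 FPKM in control and between 1058 and 1070 with SAR. Of 9 mesoderm markers, 5 were tested, 2 rose, among them TBXT by 1.69, and 2 fell, among them MIXL1 by 1.35. This is 40% in each direction, against 23.7% and 9.55% of all tested genes. The mesoderm sum was between 62.9 and 65.5 FPKM in control and 38.9 and 51.2 with SAR. Of 6 neural ectoderm markers, 4 were at most 1 FPKM in every library and the other 2, NES and OTX2, did not pass the test, with sums of 212 to 225 FPKM in control and 209 to 221 with SAR. Of 7 amnion and trophoblast markers, 6 were at most 1 FPKM in every library and GATA3 rose by 1.08 on the log2 scale, with sums of 1.19 to 2.22 FPKM in control and 2.26 to 3.63 with SAR. The part of these shifts in the changes of the immediate early genes was not tested.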

How the data were processed

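RNA-seq of 3 control and 3 SAR samples was analysed, grouped by the sample labels. The authors deposited FPKM for 40396 Ensembl gene IDs with 1 column per library and no pooling. The submitters' processing notes name HISAT2, featureCounts of Subread, DESeq2 and GRCh38.p13. Strand setting and annotation release are not given in the sources used here. Symbols were found for 30235 IDs, and exons were taken from GENCODE 29.

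Genes whose FPKM averaged 0.5 or more over the 6 libraries (16371) were tested on the log2(FPKM + 0.1) scale with limma 3.58.1 (lmFit, eBayes with an intensity trend) in R 4.3.3, with Benjamini-Hochberg adjustment over all of them and no replicate block. Genes passed at an adjusted p of 0.05, and the fold threshold was a log2 fold change beyond 1 in either direction. This scale understates the change of low genes. The test was checked on simulated data with changes in a small share of genes, so the check does not cover the scaling between the groups. Sums and ratios were compared by exact two-sided permutation tests. Whole reads were recovered for 40394 genes (within 0.02 reads) from the steps of the FPKM, and cover counting error only. Python 3.11.15, pandas 2.3.3, numpy 2.4.6, scipy 1.17.1 and matplotlib 3.10.9 were used.

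The 10 genes, the lists and the tests were chosen with earlier results of these data known. Named were the 10 genes, up to 5 members of each list with the smallest adjusted p past the threshold, the FOS, JUN and MYC paralogs, SRF, NAB1 and NAB2, up to 3 markers per cell type, and the 3 genes nearest to each of the 3 members with the smallest adjusted p. ATF4, MAX, CCN1, CCN2, HSPA1A and HSPA1B and those so marked in the text were named after their values were seen. The alternatives changed the pseudocount (to 1 or 0.01), the filter (none, or 1 FPKM on average), the scaling (by median ratio or by quantiles) or the model (without the trend, with a block for the replicate number, or voom on the recovered reads), or left out 1 library. The study's other assays were not analysed here.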

Additional observations from a re-analysis of the deposited data

How the results depend on the processing

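Each of the 10 genes kept its direction under all 15 alternatives. IER3, JUN and ATF3 passed the test in each of them, and FOSL1 and IER2 passed in none. The cause of the changes below was not tested. With no filter on low values, 0 of the 10 and 2 of the other immediate early genes rose, and 4 heat shock genes and 2 AP-1 targets passed in either direction, against 1, 6, 7 and 6. After median-ratio rescaling 0 of the 10 and 2 of the other immediate early genes rose, 4 upstream factors, 8 MAPK genes and 7 MYC targets passed, against 2, 4 and 4, the ratio of the summed AP-1 subunits was 0.789, and 2259 of all genes rose and 2538 fell. With quantile normalization these numbers were 0 of the 10, with FOSL2 passing as lower (−0.72), and 2 of the other immediate early genes, and 2429 of all genes rose, 340 past the fold threshold, and 409 fell past it. With voom on recovered reads 2 of the 10 rose. With no intensity trend 4 heat shock genes and 3 AP-1 targets passed. A pseudocount of 1 left 169 genes higher and 141 lower past the fold threshold, and a minimum mean of 1 FPKM left 369 higher.

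Leaving out a library, the 10 genes gave between 0 and 2 that rose, 2 without control replicate 1 and 0 without control replicate 2 or 3 or SAR replicate 1 or 2. The other immediate early genes gave between 2 and 4 that rose, 2 without control replicate 2 or 3 or SAR replicate 2 or 3 and 3 without SAR replicate 1. In either direction between 1 and 3 AP-1 partners, 2 and 5 stress response genes, 4 and 7 heat shock genes, 2 and 7 AP-1 targets and 2 and 5 MYC targets passed. Over all genes between 2129 and 3751 rose and between 833 and 1824 fell, and past the fold threshold between 440 and 722 rose and between 215 and 338 fell.

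Same-numbered samples did not deviate together (correlations of 0.07, 0.003 and 0.02). These values give no sign of pairing by number but cannot exclude it, and the labels do not state it. With the replicate block 1 of the 10 rose and 4 fell, and 2 of the other immediate early genes rose.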
